A study of Nematostella vectensis with 10 samples.

Results

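The 90 genes described here fell 4- to 16-fold in *Nematostella vectensis* gastrulae injected with *Nvznf845* shRNA. None of them has, at the next gene number on either side, a gene that meets the limits on control level and fall given below. They were chosen from 24520 genes on their normalised counts, which are estimated read counts divided by a size factor per library. A gene qualified when its mean over the control libraries was at least 50 normalised counts and when it was at least 4-fold lower after knockdown in each of 5 pairs of libraries, a log2 ratio of −2 or less. Of 462 such genes, 280 had no other one at the next gene number, 94 of these had a mean log2 ratio above −4, and 4 named cnidocyte genes of the study's list (*ncol1*, *coup-like2*, *TX60B-like3* and *Nvznf845* itself) were left out. The size of the fall therefore chose the genes, so their values in knockdown against control libraries are a description and carry no test.

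The knockdown group held 5 libraries from wild-type embryos injected with *Nvznf845* shRNA, and the control group 5 libraries from wild-type embryos injected with the control, which the labels call a scramble RNA and the study's methods an established control shRNA. All were whole gastrulae at 28 h post fertilisation, raised at 24 °C, with about 1000 embryos in each pool, and polyadenylated RNA was sequenced. Pairs 1, 2 and 3 came from the batches LA40, LA42 and LA45, and pairs 4 and 5 both from LA48. Each library is a separate pool of embryos, so the p-values refer to the spread between pools.

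Cnidocytes are the stinging cells of cnidarians, and each one builds a capsule that holds a tubule fired on contact. In nematocytes, the piercing class of cnidocytes, this capsule is the nematocyst, which is lined with minicollagens. Cnidocytes differentiate from progenitors scattered in the ectoderm of the embryo. *Nvznf845* encodes a zinc finger protein that regulates this differentiation, and a short hairpin RNA lowers a chosen transcript through RNA interference. The files give the 90 genes by number only, so no name, function or sequence is attached to them here.

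Total counts were 20848941 to 35960095 per knockdown library (median 23423720) and 18891111 to 49293261 per control library (median 27150158). Both libraries of pair 3 stood apart, since the 10 most abundant genes took 67.4% of the counts in the knockdown library and 56.0% in the control, against 6.24% to 33.3% in the other 8 libraries. The targeted gene, *Nvznf845*, averaged 280 ± 65.4 normalised counts after knockdown and 1514 ± 105 in controls (SD, n = 5 each). Of 17 published cnidocyte genes, taken from the study's list with its results known and so no independent evidence of direction, all 17 were called lower by edgeR's quasi-likelihood test, with log2 fold changes of −7.92 to −1.23 (median −4.44). Their summed TPM, the length-corrected unit that the authors computed, was 60.2 to 196 after knockdown and 1487 to 3125 in controls, and *Ncol* alone was listed at 0 in any library, after knockdown. In RNA from whole embryos, fewer cells of a type and less RNA per cell cannot be told apart, and what part a lower number of cnidocytes had in the falls below was not tested.

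Within the limits of the rule, the 90 genes kept a small part of their control level. All remained detectable after knockdown, which the limit of −4 on the mean log2 ratio favours. They kept between 6.04% and 19.6% of their control level (median 10.1%), and their mean log2 ratio over the 5 pairs ran from −3.98 to −2.36 (median −3.34). The mean ratio was above −4 and at most −3.5 in 36 genes, at most −3 in 29, at most −2.5 in 21 and above −2.5 in 4, within limits that the rule set. Every gene had at least 1 count in every library, although 32 of them had under 10 estimated counts in some knockdown library. Without pair 3 the median of the mean ratio was −3.34 too, with a range of −4.31 to −2.33.

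**Figure D1:**
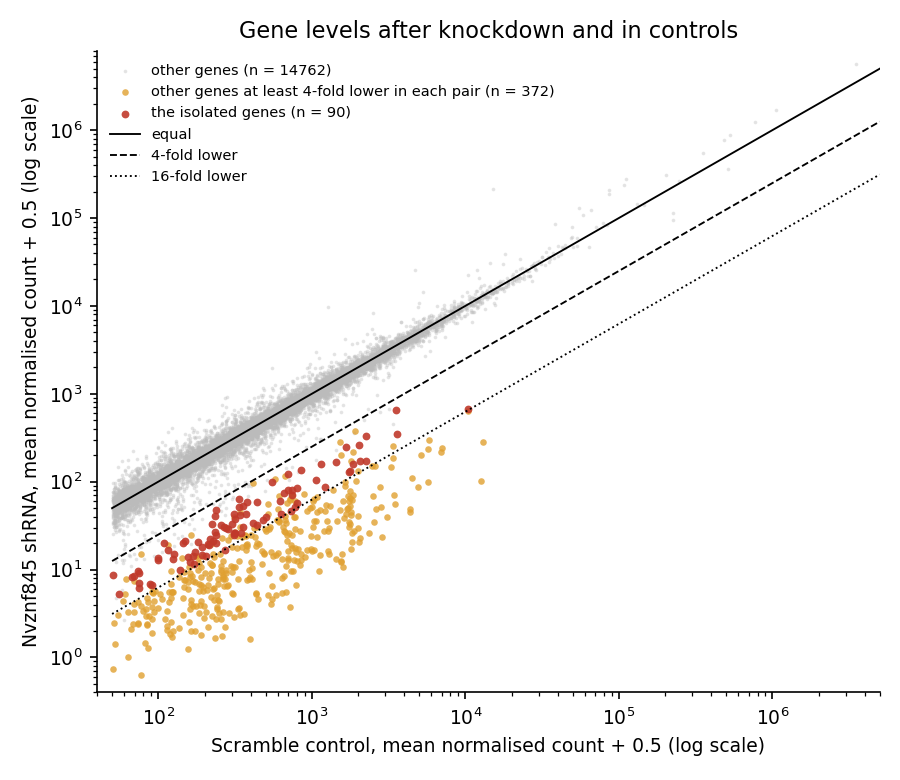
Mean normalised count + 0.5 in the 5 *Nvznf845* shRNA libraries (vertical, log scale) against that in the 5 control libraries (horizontal, log scale) for the 15224 genes with a control mean of at least 50. The 90 isolated genes (red) lie between the lines for a 4-fold and a 16-fold fall or close to them, above most of the other 372 strongly falling genes (orange) and below nearly all other genes (grey).

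The genes were moderately expressed in control gastrulae. On a scale that corrects for transcript length, their control level ran from 1.06 to 480 TPM with a median of 9.39 TPM, against a median of 13.2 TPM for the 15224 genes with a control mean of at least 50. After knockdown their median was 1.01 TPM, with a range of 0.104 to 31.2 TPM. The 180 isolated genes with larger falls, chosen by the same rule with a mean log2 ratio of −4 or less, had a median of 0.278 TPM after knockdown and 13.6 TPM in controls. The median length of the leading transcript, the one with the most counts, was 2459 bases in the 90 genes and 2398 bases in those 180. Across the 90 genes the mean log2 ratio was barely related to the control level (Spearman's rho −0.08 with TPM) or to transcript length (rho 0.08). These values describe genes that share the same 10 libraries, and the rule limited the ratio, which leaves less room for a relation.

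NV2.20489 was by far the most abundant of the genes and had one of the largest falls. It had 745, 836, 619, 652 and 512 normalised counts in knockdown libraries 1 to 5, against 10083, 11391, 10940, 9274 and 10136 in control libraries 1 to 5. The 2 groups were far apart and both were tight, and the gene kept 6.49% of its control level, at 31.2 ± 12.7 TPM after knockdown and 480 ± 110 TPM in controls (SD, n = 5 each). NV2.2652, the next by TPM, had a much smaller fall. It had 847, 666, 592, 621 and 500 normalised counts after knockdown, against 4400, 4302, 2446, 3071 and 3342 in controls. Both genes were thus left with a similar number of counts after knockdown, 673 ± 124 for NV2.20489 and 645 ± 128 for NV2.2652 (SD, n = 5 each), although NV2.2652 kept 18.4% of its control level.

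The other 6 of the 8 genes with the highest control TPM kept 7.39% to 15.6% of their control level. NV2.20838 had 203, 190, 117, 156 and 126 normalised counts after knockdown, against 2349, 2353, 1007, 1698 and 1806 in controls. NV2.16021 had 121, 145, 163, 136 and 93.0 after knockdown, against 1649, 2184, 1547, 1654 and 1861 in controls. NV2.20838 kept 8.59% of its control level and NV2.16021 kept 7.39%, and control library 3 was the lowest control for both. NV2.9534 had 297, 370, 412, 264 and 315 normalised counts after knockdown, against 2751, 2612, 1657, 2087 and 2190 in controls. Its log2 ratio in pair 3, −2.01, was the smallest fall of any of the 90 genes in any pair.

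NV2.23423 and NV2.10042 had the shortest leading transcripts of the set, 570 and 577 bases. NV2.23423 had 67.5, 70.7, 46.3, 61.6 and 47.8 normalised counts after knockdown, against 570, 526, 215, 416 and 453 in controls. NV2.10042 had 81.8, 42.5, 66.5, 60.6 and 41.2 after knockdown, against 440, 422, 275, 374 and 368 in controls. In both genes control library 3 was again the lowest of the controls, and their smallest log2 ratios in size, −2.20 and −2.04, were those of pair 3. NV2.18480, with a leading transcript of 3688 bases, showed the opposite order. It had 269, 574, 179, 396 and 338 normalised counts after knockdown, against 1760, 3294, 3791, 4427 and 4701 in controls, so control library 1 was the lowest and its largest fall, a log2 ratio of −4.40, was that of pair 3.

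**Figure D2:**
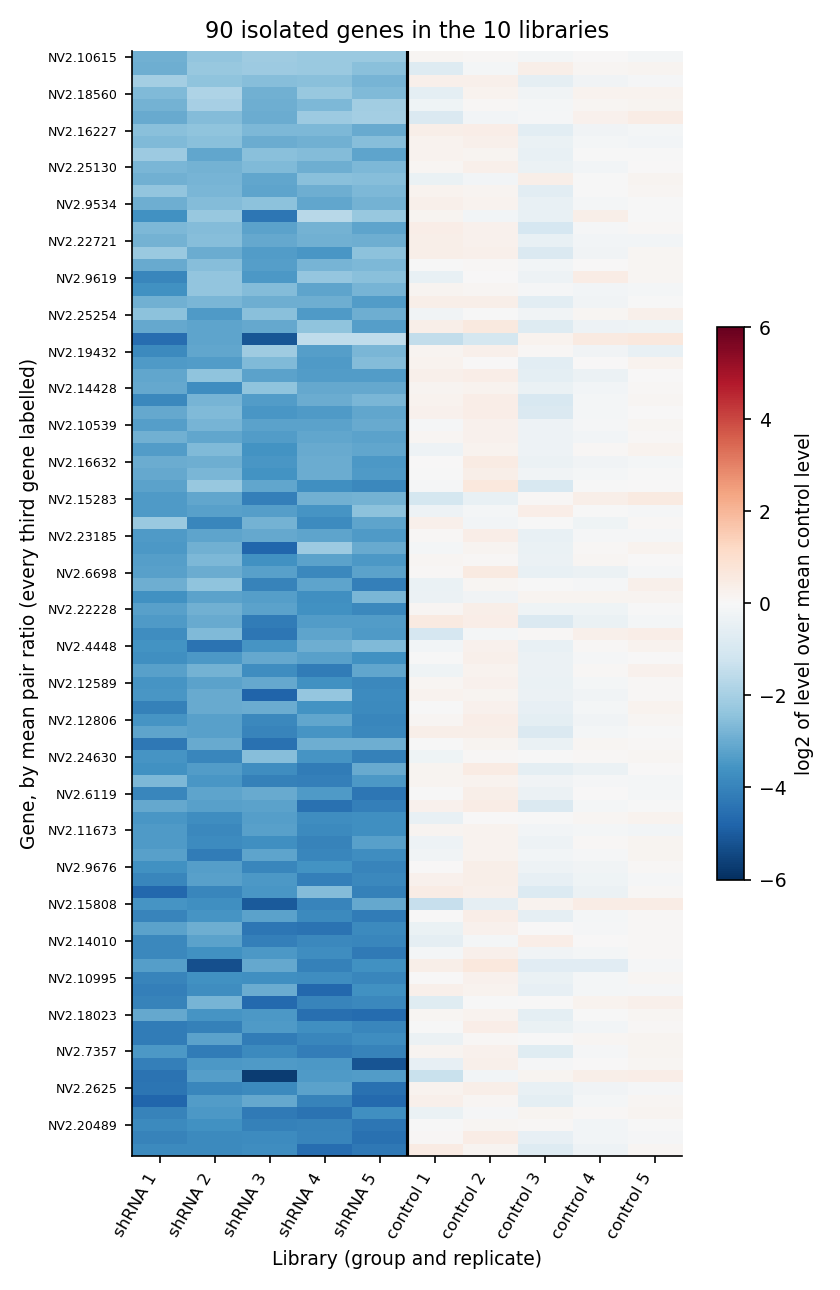
Level of each of the 90 genes (rows, ordered by mean pair ratio with the smallest fall at the top) in the 5 *Nvznf845* shRNA libraries and the 5 control libraries (columns), as the log2 of the normalised count + 0.5 over the gene's mean control count + 0.5. All 90 rows are blue in the shRNA columns. Control library 3 is the lowest control in 58 rows (64.4%), and in 42.2% of the 15134 other genes with a control mean of at least 50.

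In the fit across all genes, 89 of the 90 were called lower after knockdown, that is with a change of at least 1.5-fold and a Benjamini-Hochberg adjusted p no higher than 0.05 in edgeR's quasi-likelihood test, where 4.23% of the 19001 genes tested were called lower and 1.21% higher. Since the rule used the same contrast, nothing is read from that count. All 5 knockdown libraries were below all 5 control libraries in 90 of 90 genes, which the rule largely fixes as well. The share over other genes was not worked out, and nothing is read from this count either. The median log2 fold change was −3.28 over the 90 genes and 0.01 over all genes tested. The exception was NV2.8261, whose fall of −2.45 ± 0.672 on the log2 scale (± standard error) had an adjusted p of 0.0655 by edgeR and which DESeq2, limma-voom and edgeR with the replicate number as a block did call. It had 9.48, 25.6, 6.05, 80.1 and 81.0 normalised counts after knockdown, against 84.5, 112, 270, 339 and 358 in controls. The values differed several-fold within each group, and the highest knockdown library lay just below the lowest control.

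Among genes with a control mean of at least 100, NV2.8261 was 1 of the 4 with the widest range of log2 ratios between pairs, together with NV2.15808, NV2.17517 and NV2.3697. NV2.15808 had 29.6, 26.5, 10.1, 21.5 and 40.5 normalised counts after knockdown, against 130, 238, 405, 478 and 477 in controls. NV2.17517 had 20.1, 44.2, 8.06, 41.0 and 43.2 after knockdown, against 176, 390, 485, 560 and 585 in controls. NV2.8261, NV2.15808 and NV2.17517 shared a pattern, in which knockdown library 3 was the lowest of its group, control library 1 was the lowest of its group and the largest fall was that of pair 3, at log2 ratios of −5.37, −5.26 and −5.83. NV2.3697 had 7.08, 19.1, 24.0, 12.1 and 7.42 normalised counts after knockdown, against 248, 223, 137, 185 and 221 in controls. Here the order was the reverse, with the smallest fall in pair 3 (−2.48) and the largest in pair 1 (−5.03).

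The 4 genes with the narrowest range, under the same control minimum, were NV2.10539, NV2.20240, NV2.6479 and NV2.12695. NV2.10539 had 32.0, 45.1, 34.3, 34.2 and 38.5 normalised counts after knockdown, against 298, 386, 259, 299 and 346 in controls. Its log2 ratios lay between −3.20 and −2.90, a range of 0.30. The ratios lay between −3.34 and −2.98 in NV2.20240, between −2.93 and −2.56 in NV2.6479 and between −3.10 and −2.64 in NV2.12695, whereas over the 90 genes the range between pairs was 0.30 to 3.54 with a median of 1.17, or 0.84 without pair 3. Across the 90 genes a wide range went with a low control count (Spearman's rho −0.34), as a description.

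Pair 3 differed from the other pairs in this set. The median log2 ratio of the 90 genes was −3.31, −3.29, −3.00, −3.31 and −3.36 in pairs 1 to 5, and 44 of the genes had their smallest fall in pair 3, against 6 to 14 in each other pair. *Nvznf845* itself had its largest fall in pair 3, with a log2 ratio of −3.16, against −2.43 to −2.14 in the other pairs. The summed counts of the 90 genes were less uneven and kept 10.8%, 10.9%, 10.6%, 10.2% and 8.97% of the control sum in pairs 1 to 5. That sum lay between 5713 and 7481 normalised counts after knockdown and between 54146 and 68898 in controls.

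**Figure D3:**
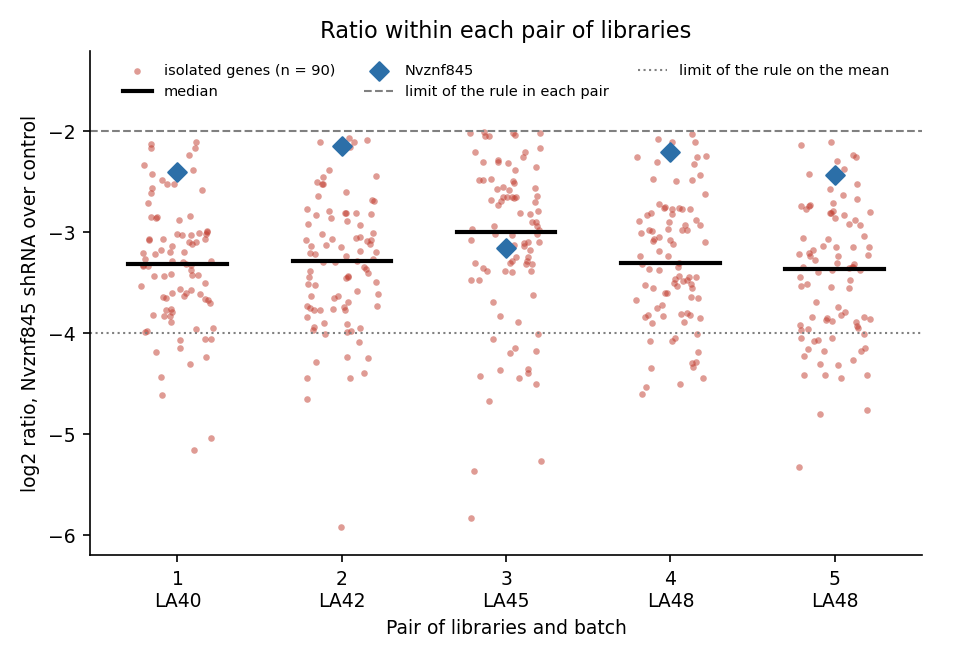
The log2 ratio of *Nvznf845* shRNA over control library in each of the 5 pairs, with the batch of the pair, for the 90 isolated genes (red points, spread sideways at random), their median (black bar) and *Nvznf845* (blue diamond). Dashed and dotted lines mark the limits of the rule, −2 in each pair and −4 on the mean. The median was −3.00 in pair 3 and −3.36 to −3.29 in the others, while *Nvznf845* lay lowest in pair 3.

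The difference between pairs moved with transcript length. In control library 3 the 30 shortest of the 90 genes lay furthest below their control mean, with a median log2 deviation of −0.53, and the 30 longest were nearer to it at −0.11. Spearman's rho was 0.67 between the length of the leading transcript and that deviation over the 90 genes, and 0.57 over the 15134 other genes with a control mean of at least 50. Control library 1 showed the reverse, with a rho of −0.66 over the 90 genes and −0.51 over the others. In control libraries 2, 4 and 5 rho was −0.49, 0.47 and 0.27 over the 90 genes and −0.45, 0.29 and 0.21 over the others. In knockdown libraries 1 to 5 rho was −0.12, 0.03, −0.20, 0.00 and 0.29 over the 90 genes. Over the other genes it was −0.42, 0.32, −0.06, −0.29 and 0.43, so a relation with length was present in knockdown libraries too. All genes of a library share its preparation and depth, so these values describe libraries and not independent genes, and the part of library preparation in them was not tested.

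In the pair ratios, the 30 genes with the shortest leading transcripts (at most 2049 bases) and the 30 with the longest (at least 2921 bases) changed places between pairs. In pair 1 the median log2 ratio was −3.63 for the short genes and −3.10 for the long ones. In pair 3 it was −2.65 for the short genes and −3.15 for the long ones. Of the 44 genes with their smallest fall in pair 3, 22 were among the 30 short genes and 9 among the 30 long ones. In pairs 2, 4 and 5 the medians of the short genes were −3.40, −3.33 and −3.50 and those of the long genes −3.10, −3.43 and −3.35. The 3 genes with the longest leading transcripts were NV2.16479, NV2.15808 and NV2.14321 (6610, 5646 and 5480 bases). All 3 had their lowest control value in library 1.

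**Figure D4:**
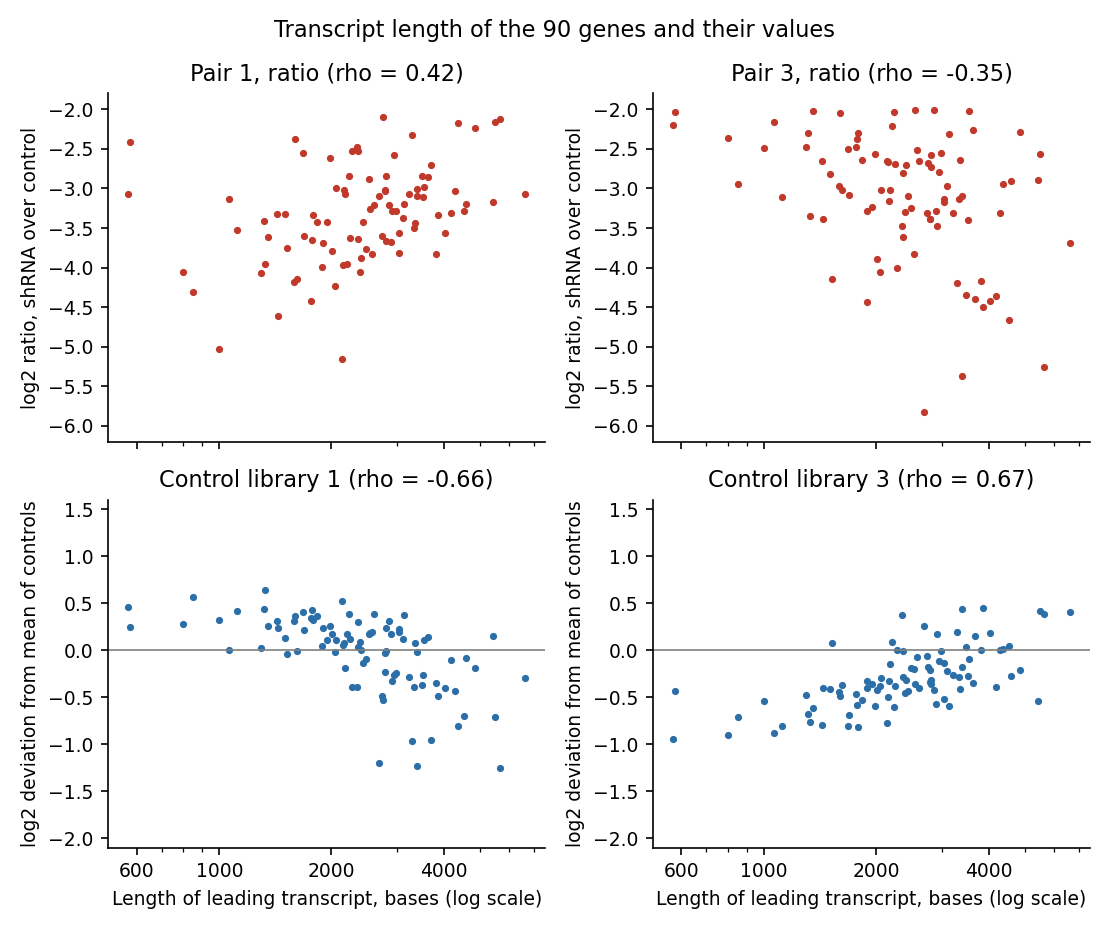
Length of the leading transcript in bases (horizontal, log scale) of the 90 genes against their log2 ratio of *Nvznf845* shRNA over control in pairs 1 and 3 (upper panels, red) and against their log2 deviation from the mean of the 5 controls in control libraries 1 and 3 (lower panels, blue). Short genes lie high in control library 1 and low in control library 3, with Spearman's rho of −0.66 and 0.67, and their falls are larger in pair 1 and smaller in pair 3.

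Each of the 4 batches held as many knockdown as control libraries, so differences between batches could be tested apart from the contrast that the rule used. With TMM scaling 1 of the 90 genes, NV2.17239, differed between batches at an adjusted p of at most 0.05 from edgeR's quasi-likelihood F test with batch and condition as terms, where 2.61% of the 19001 genes tested were called. NV2.17239 had 84.1, 115, 86.7, 155 and 166 normalised counts after knockdown, against 380, 628, 669, 838 and 956 in controls (adjusted p = 0.0353 from edgeR). Both groups were highest in libraries 4 and 5, those of batch LA48, and lowest in library 1, and the call was lost without pair 1, 4 or 5. The count rested on the scaling and the libraries used, with 85 of the 90 genes called with library size alone (14683 of all genes) and 61 in control libraries only (10570 of all genes), where 3 of the 4 batches have a single library. The next gene by this test was NV2.20838 (adjusted p = 0.0614 from edgeR), whose values in pair 3 were the lowest of both groups. At an unadjusted p under 0.05 there were 24 genes, 26.7% of the 90, against 18.4% of all genes tested.

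Most of the genes have a single annotated transcript, and the use of alternative transcripts could be tested in few. The annotation gave 74 genes 1 transcript and 16 genes, or 17.8%, at least 2, against 28.9% of all genes with a control mean of at least 50. The share of a gene's counts on each of its transcripts was tested between knockdown and control. The rule used only the sum over transcripts, yet that sum falls far only if the transcript with most control counts falls. Transcripts with few control counts are less bound by it. The choice of genes can thus move the shares, and its part in the results below was not tested. Of the 16 genes, 9 had at least 2 transcripts with enough counts, and none of the 9 passed an adjusted p of 0.05 in edgeR's diffSpliceDGE, which called 1.3% of the 3701 genes tested. At an unadjusted p under 0.05 there were 6 of the 9, against 6.11% of the 3701 genes. With limma's diffSplice 1 gene was called, and with edgeR's newer dispersion estimate, tried after the data had been seen, 3 genes.

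The leading transcript had a lower share of its gene's pooled counts after knockdown in 13 of the 16 genes, by very little in some of them (98.2% after knockdown and 98.4% in controls in NV2.10042), and in 50.9% of the 4381 other genes with at least 2 transcripts and a control mean of at least 50. The leading transcript is here the one with the most control counts, and where it has nearly all of them its share has little room to be higher after knockdown. The rule also asks for a fall of the summed counts, which such a transcript must share while a minor one need not. The count of 13 is therefore not free of the choice of genes. The genes named for this were chosen after their values were seen. In NV2.23185 the leading transcript took 0%, 36.1%, 0%, 32.4% and 0% of the gene's counts in knockdown libraries, against 75.8%, 75.5%, 81.6%, 86.4% and 86.5% in control libraries (unadjusted p = 0.00112 and adjusted p = 0.0751 from edgeR, adjusted p = 0.0142 from limma's diffSplice). No knockdown library overlapped the controls, and the other transcript, which is longer, had most of the counts that were left. In NV2.25254 the leading transcript took 0% of the counts in knockdown libraries 1 to 4 and 23.0% in library 5, against 63.0%, 80.0%, 43.2%, 45.2% and 67.0% in controls. These shares are over 3 transcripts, with 4.36, 38.1 and 19.0 estimated counts on transcripts 1, 2 and 3 in the 5 knockdown libraries together. The edgeR test compared only transcripts 1 and 3 (adjusted p = 0.261, and 0.0343 on 2 transcripts without pair 5). Transcript 2, with 62.0% of the pooled counts after knockdown and 12.6% in controls, did not pass the filter on low counts. Without that filter all 3 were tested and the gene was called (adjusted p = 0.0139 from edgeR). In NV2.3697 the leading transcript took 64.4%, 63.0%, 29.2%, 46.3% and 43.2% after knockdown, against 77.3%, 79.0%, 67.7%, 69.9% and 69.0% in controls (adjusted p = 0.546 from edgeR). It had only 31.5 estimated counts in the 5 knockdown libraries together, and the other transcript 31.6.

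NV2.19216 was not among the genes tested, since its second transcript did not pass the filter on low counts. That transcript took 37.9%, 40.3%, 33.6% and 58.8% of the gene's counts in knockdown libraries 1 to 4 and none in library 5, or 60.9 of 165 estimated counts in all. In controls it had 0 of 1702 counts, which allows a share of up to 0.176% for counting error only. Without the filter on low counts the gene was called (adjusted p = 0.00151 from edgeR). In NV2.14321 and NV2.10528 the counts lay wholly or mostly on one transcript in some knockdown libraries and on the other in the rest, at 100%, 0%, 100%, 0% and 0% for the leading transcript of NV2.14321, against 89.3% to 97.0% in controls. Salmon divides reads that fit several transcripts, and it put over 99% of the counts on 1 transcript in some knockdown library for 13 of the 16 genes and in some control library for 7. What part this division had in the shares was not tested.

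**Figure D5:**
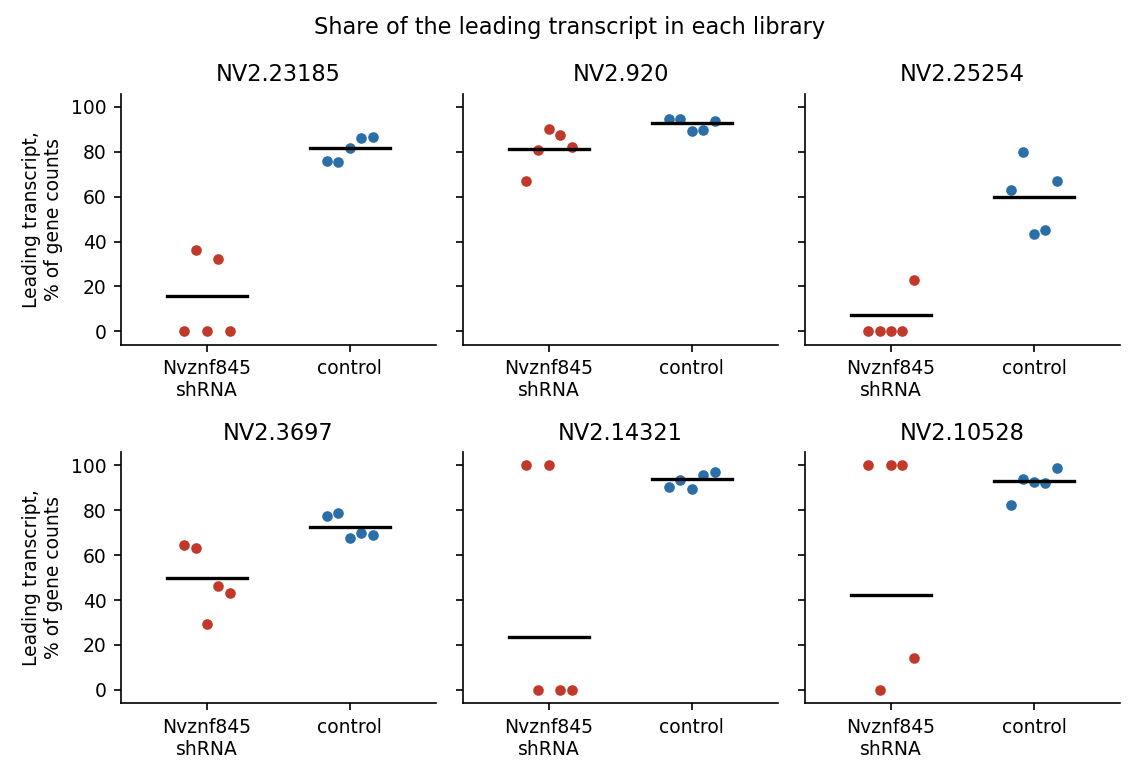
Share of the gene's estimated counts on its leading transcript, in percent, in each of the 5 *Nvznf845* shRNA libraries (red, left) and the 5 control libraries (blue, right) for the 6 genes with an unadjusted p under 0.05. Black bars are the shares of the counts pooled over the 5 libraries, at 15.7% after knockdown and 81.5% in controls for NV2.23185. NV2.14321 and NV2.10528 range from 0% to 100% after knockdown. In NV2.25254 the shares cover 3 transcripts, of which the test used 2.

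NV2.23423, NV2.12695 and NV2.18751 were among the 5 genes with 3 transcripts, the most in this set, and their pooled shares were close. The leading transcript took 88.0% of the pooled counts after knockdown and 86.7% in controls in NV2.23423, 100% and 97.3% in NV2.12695, and 59.7% and 64.2% in NV2.18751. In single libraries NV2.18751 was less even, with 56.4%, 67.2%, 60.5%, 100% and 38.4% after knockdown, against 59.4% to 69.7% in controls. The adjusted p from edgeR was 1.00 for NV2.23423 and NV2.18751, and NV2.12695 had only 1 transcript with enough counts.

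Although the rule removed genes whose next number held another gene meeting its limits on control level and fall, some genes nearby were also called lower. Gene numbers are used here as an order only, and genome positions were not used. Of the 168 distinct genes at the next number on either side, 123 could be tested. By edgeR, 16 of them (13.01%) were called lower and none higher. Beside other genes with a control mean of at least 50 and no neighbour meeting those limits, 255 of 15341 (1.66%) were called lower. The median log2 fold change of the 123 was −0.02, so most of them barely moved. No test was made of the difference in shares. A gene passing the full limit of −2 in each pair lay 2 numbers away from 12 of the 90 genes (13.3%), against 371 of 14449 other isolated genes (2.57%), 3 numbers away from 4 of them (4.44% against 3.03%), 4 numbers away from 4 (4.44% against 3.25%) and 5 numbers away from 11 (12.2% against 3.26%).

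The called neighbours with the largest changes lay beside NV2.14321, NV2.23629, NV2.18751 and NV2.19339. NV2.14320 averaged 19.2 ± 11.8 normalised counts after knockdown and 163 ± 54.9 in controls (SD, n = 5 each), a difference of −3.03 on the log2 scale with an edgeR adjusted p of 3.27e-04, and NV2.14321 itself averaged 62.9 ± 12.01 after knockdown and 335 ± 89.5 in controls. NV2.19340 averaged 105 ± 74.1 after knockdown and 713 ± 304 in controls (SD, n = 5 each), a difference of −2.72 on the log2 scale with an edgeR adjusted p of 0.00395. NV2.23628 and NV2.18752 had low counts, at 4.31 ± 2.68 and 2.25 ± 1.91 after knockdown and 33.6 ± 5.50 and 19.0 ± 10.5 in controls (SD, n = 5 each), which is below the control minimum of the rule. NV2.14011 lay between 2 of the 90 genes, NV2.14010 and NV2.14012, and was also called lower, with a log2 fold change of −2.59 (adjusted p = 0.00120 from edgeR). It missed the rule with log2 ratios of −1.68 and −1.69 in pairs 1 and 2, against −4.08 in pair 3.

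Of the 90 genes, 5 lay within 5 numbers of a published cnidocyte gene. The share of all genes lying so near was not worked out, so the count is a description and no link is read from it. NV2.20489, the most abundant of them, lay 2 numbers from *NEP3-like*, a relative of the nematocyst toxin gene *NEP3*, with mean log2 ratios of −3.96 for NV2.20489 and −5.15 for *NEP3-like*. The number between them is *NEP3*, which averaged 0 normalised counts after knockdown and 4.42 in controls. NV2.6788 lay 2 numbers from *NvpaxA*, a paired-box transcription factor gene, with mean log2 ratios of −3.57 for NV2.6788 and −5.79 for *NvpaxA*. NV2.18480 lay 2 numbers from *Nvsox2*, a Sox transcription factor gene, and here the unnamed gene had the larger fall, with −3.38 against −1.22 for *Nvsox2*. The others were NV2.22448, at 2 numbers from *NVE13546*, and NV2.12616, at 5 numbers from the minicollagen gene *ncol1*.

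The limits of the rule cut through a continuous range of values. Just inside the limit of −4 on the mean log2 ratio lay NV2.23629, NV2.931 and NV2.20489, at −3.98, −3.98 and −3.96, and just outside it NV2.12063, NV2.2780 and NV2.13424, at −4.02, −4.03 and −4.04. The smallest falls in any pair were −2.01, −2.01 and −2.02 in NV2.9534, NV2.14428 and NV2.25010, all 3 inside, and −1.99, −1.98 and −1.97 in NV2.1257, NV2.18599 and NV2.18915, which missed it. The lowest control means inside were 50.3, 54.7 and 66.8 normalised counts in NV2.5717, NV2.13521 and NV2.25010, and the nearest below the limit were 45.5, 41.2 and 39.0 in NV2.12500, NV2.17370 and NV2.2621. NV2.13521 had 2.37, 6.19, 2.02, 6.84 and 6.64 normalised counts after knockdown, against 53.7, 60.4, 41.4, 60.2 and 58.0 in controls. At such depth a few counts set the ratio of a pair, which was −4.24 in pair 1 and −3.03 in pair 5.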

How the data were processed

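RNA was measured in 10 libraries, 5 per group, placed in groups by the treatment in the labels. The authors quantified the reads with Salmon against the Nvec200 gene models on Galaxy; its version is not given in the sources used here, and the study's own tests used DESeq2. The deposited values are estimated counts and the authors' TPM per transcript, beside lengths, which were used for the leading transcript, and effective lengths, which were not used. The 35819 transcripts were added up to 24520 genes and their counts rounded for the fits. Size factors were medians of ratios over 20303 genes above 0 in all libraries, and pair ratios used a pseudocount of 0.5. The members and gene lists were chosen with earlier results of these data known. Names came only from the study's supplementary list of cnidocyte genes, which pairs 38 names with gene numbers.

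Genes were fitted with edgeR 4.0.16 in R 4.3.3 (TMM, filterByExpr with its minimum of 10 counts, robust glmQLFit, condition as the only term, Benjamini-Hochberg over all genes), with calls at a log2 fold change of 0.585 or more in size and an adjusted p no higher than 0.05. The standard error is the fold change over the square root of F. Transcript usage was fitted with diffSpliceDGE and batches with batch and condition as terms. Each fit was tested on simulated data. Alternatives used DESeq2 1.42.0, limma 3.58.1, other normalizations, filters and blocks, log2(TPM + 1), and leaving out libraries or pairs. Replicate numbers pair the libraries, and both of a number come from 1 batch in the labels. Pairs 4 and 5 share the batch LA48, so there the pairing rests on the replicate number alone. Deviations from group means correlated at 0.43, −0.02, 0.20, 0.14 and 0.55 in pairs 1 to 5, over 19185 genes. No 2 libraries of a group were duplicates.

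Genes were named by rule: the 8 with the highest control TPM, the 4 widest and 4 narrowest ranges of pair ratios, 3 on each side of each limit, those called for transcript usage or between batches, 4 with the strongest called neighbour, and 3 with the most and 3 with the longest transcripts. The transcript usage part named none. Other genes were named after their values were seen. Reads shared with near-identical copies are divided by Salmon, so such genes are less certain.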

Additional observations from a re-analysis of the deposited data

Results flagged for a closer look

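In groups of 5 libraries, a highest or lowest value was singled out where its gap to the nearest other value took up most of the group's range, by Dixon's 95% criterion, which chance meets in about 1 of 20 groups. Of the 54 groups examined, both groups of each of the 27 named genes, 3 met it. In NV2.25010, control library 3 was the lowest at 42.3 normalised counts, against 68.4 to 78.1 in the other 4 controls. In NV2.19339, knockdown library 2 was the highest at 63.6, against 32.5 to 39.1 in the other 4 knockdown libraries. In NV2.16479, the gene with the longest leading transcript, knockdown library 5 was the highest at 118, against 56.7 to 68.9 in the other 4.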

How the results depend on the processing

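The rule gave 78 to 131 genes under the 9 other settings and 95 to 104 with 1 pair left out, against 90. Without pair 3 it gave 104, 79 of them among the 90. With the replicate block, 820 genes were lower and 314 higher, all 90 genes of the set (the members) were called lower (NV2.8261 was gained), and transcript usage was called in 47 genes and no member; the block changed no other call of a member. The number of lower genes stayed within 1.5 times of 803 in every alternative. The 229 higher genes became 21 with library size alone, 349 with batch as a term, 26 on log2(TPM + 1) with limma, 113 in pairs 4 and 5 alone (a setting added, like the newer dispersion, after seeing the data), and 118 to 258 without 1 library or pair. The members' median log2 fold change, −3.28, was −2.38 on log2(TPM + 1), which shrinks low values, and −3.40 to −3.23 without 1 library or pair. Transcript usage, called in 48 genes and no member, was called in 1 member with limma's diffSplice, 2 without a filter, 3 (and 78 genes) with edgeR's newer dispersion, and in 37 to 47 genes and 0 to 1 members without 1 pair. Batch differences, called in 496 genes and 1 member, were called in 14683 genes and 85 members with library size alone, in 10570 and 61 in control libraries only, where 3 of 4 batches have 1 library, in 2 members with limma-voom, and in 12 to 551 genes and 0 to 3 members without 1 pair. The cause of these shifts was not tested. The lowest knockdown counts, 27 over 5 libraries in NV2.13521, limit the precision of single pair ratios.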
